A study of Mus musculus with 2 samples.

Results

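The genes described here are 9 mouse genes of photoreceptor identity and phototransduction, namely Crx, Nrl, Opn1sw, Gnat1, Pde6a, Pde6b, Sag, Rcvrn and Prph2, out of 21887 protein-coding genes in the RefSeq annotation of the assembled autosomes and sex chromosomes. They were chosen by name, with earlier results of these data known. Every called peak was then taken whose summit lay in the gene body or no further than 10 kb from either annotated gene end. The series addresses ocular functions of histone H3.2, and its material was snap-frozen whole heads from mouse embryos at E10.5, from which chromatin was pulled down with an anti-GFP antibody (sc-9996) and sequenced. There were 2 libraries of identical description, called library 1 and library 2 here, which form 1 group. The labels give no strain, sex, transgene, GFP-carrying protein, litter or untagged control, and they do not say that the libraries came from separate embryos. A whole head mixes many cell types, and the retina is a small share of it. Peak lists do not measure RNA, so neither the tissue label nor the absence of expression of these genes at this stage could be checked.

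Photoreceptors are the light-sensing cells of the retina. In rods and cones, light activates an opsin, the opsin activates the G protein transducin, and transducin releases the inhibition of a cGMP phosphodiesterase, so that cGMP falls and cyclic nucleotide-gated channels close. Arrestin and calcium sensors end the response, and the outer segment discs that carry the machinery need rim proteins of the tetraspanin family. The homeodomain factor Crx and the leucine zipper factor Nrl drive this programme, and rods and cones mature well after the optic cup has formed.

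Library 1 had peaks in and around all 9 genes, and library 2 had none. In library 1, 191 summits fell in 391 kb of gene windows, from 11 at Crx and at Opn1sw to 41 at Pde6a. A peak in the same kind of window was present at 94.8% of all protein-coding genes in library 1, and at 97.0% of autosomal ones. A count of 9 of 9 (100%, 95% Clopper-Pearson interval 66.4 to 100) is thus close to the background. In library 2 the count was 0 of 9 (upper bound 33.6%), where 0.192% of protein-coding genes had a peak. The nearest library 2 summit lay 1.79 Mb from Sag, and for the other 8 genes the distance ran from 2.95 Mb at Opn1sw to 91.0 Mb at Pde6b. Unless library 2 is named, all further values are from library 1 and have no replicate. Intervals cover counting error only.

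The lists behind these values were very unequal in size. Library 1 held 584724 peaks with a median width of 201 bp, a median fold of 3.90 and a median summit pileup of 15 extended reads. Library 2 held 348 peaks, of which 127 lay on assembled chromosomes, with medians of 76.5 bp, 4.27 and 82.5 reads over the whole list. Fold is the authors' enrichment of the summit over the local background of the peak caller, and pileup is the number of extended reads over the summit, recovered from that fold and the p-value.

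Transcription start sites could be placed for 6 of the 9 genes, and 3 of these starts lay inside a peak. They belonged to Crx, Pde6b and Prph2. Among 21263 RefSeq promoter starts of protein-coding genes, 27.3% lay inside a library 1 peak. The 250 bases just before the start were touched by a peak in the same 3 genes, against 36.6% of all those promoters. They are printed here for these genes, and for Nrl as the gene whose start lay farthest from a peak, read 5′ to 3′ along the gene from RefSeq, build GRCm38.p6 (mm10). Capitals mark the bases inside the called peak, so that the reach of each peak over the start can be seen.
Crx, chr7:15879956-15880205, minus strand: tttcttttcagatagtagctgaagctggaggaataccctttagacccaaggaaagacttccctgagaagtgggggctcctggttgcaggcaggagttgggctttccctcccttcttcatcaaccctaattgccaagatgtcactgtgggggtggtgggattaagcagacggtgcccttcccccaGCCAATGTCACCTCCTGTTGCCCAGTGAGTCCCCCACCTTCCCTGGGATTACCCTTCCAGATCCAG
Pde6b, chr5:108388123-108388372, plus strand: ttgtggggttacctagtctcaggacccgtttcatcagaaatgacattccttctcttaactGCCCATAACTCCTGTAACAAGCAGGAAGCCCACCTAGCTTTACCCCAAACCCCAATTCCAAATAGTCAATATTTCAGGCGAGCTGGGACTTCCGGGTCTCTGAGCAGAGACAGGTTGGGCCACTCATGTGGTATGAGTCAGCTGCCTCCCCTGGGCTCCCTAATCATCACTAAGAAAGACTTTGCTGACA
Prph2, chr17:46910228-46910477, plus strand: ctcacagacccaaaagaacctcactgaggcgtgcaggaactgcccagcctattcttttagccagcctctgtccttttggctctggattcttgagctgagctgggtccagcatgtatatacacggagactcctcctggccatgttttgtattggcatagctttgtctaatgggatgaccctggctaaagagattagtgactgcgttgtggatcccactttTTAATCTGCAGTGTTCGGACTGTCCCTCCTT
Nrl, chr14:55524253-55524502, minus strand: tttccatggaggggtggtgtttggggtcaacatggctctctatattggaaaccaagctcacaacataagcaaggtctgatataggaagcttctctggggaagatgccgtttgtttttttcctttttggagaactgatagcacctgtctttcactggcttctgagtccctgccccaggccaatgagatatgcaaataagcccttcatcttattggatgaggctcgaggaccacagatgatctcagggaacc
The peak covered the last 66 bases before the start in Crx, 190 bases in Pde6b and 31 bases in Prph2. In Opn1sw and Sag the stretch itself was free of peaks, but a peak began 29 bp from it in Opn1sw and 81 bp from it in Sag. In Nrl the nearest peak was 1818 bp away. The RefSeq promoter start of Nrl, at 55524252, lies inside the annotated gene, whose higher end is at 55524981.

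The same 250-base stretches were searched on both strands for a pair of short motifs of photoreceptor regulators and for the TATA box, a general promoter element, none of which overlap each other in these genes. The letters TAATCC, recognised by Crx and Otx homeodomains, occurred at Crx and Sag, and in 5.82% of the 21263 promoters. At Crx there were 2 copies on the minus strand of the gene, with first bases at -94 and -21 from the start, of which the copy at -21 lay inside the peak and the copy at -94 outside it. Sag had 1 copy at -87. The letters TGCTGA, a core part of the Maf-type site bound by Nrl, were found at Sag, Pde6b and Opn1sw, at -187, -8 and -199, and in 14.9% of promoters. The copy at Pde6b lay inside the peak. The TATA box word TATAAA was present at Sag alone of the 6, at -207 and on the minus strand, and in 11.6% of promoters. Neither Nrl nor Prph2 held any of the 3 words.

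Peak density differed 3.40-fold between the genes. Per 10 kb of window, Gnat1 had 9.13 summits (95% exact Poisson interval 5.79 to 13.7), Prph2 8.42 (5.64 to 12.1) and Nrl 6.92 (4.10 to 10.9). Opn1sw followed with 4.61 (2.30 to 8.25), Pde6a with 4.59 (3.30 to 6.23), Sag with 4.33 (2.90 to 6.21) and Rcvrn with 4.28 (2.21 to 7.48). The lowest densities were 3.23 at Crx (1.61 to 5.79) and 2.68 at Pde6b (1.56 to 4.30). The interval of each gene overlapped that of the next in this order. Those of Gnat1 and Prph2, at the top, did not overlap that of Pde6b, at the bottom. These genes were picked as extremes from the same values, so the gap does not show that they differ. Over the 9 genes together, all of them autosomal, the density was 4.88 per 10 kb (4.21 to 5.63). Pooled over all protein-coding genes it was 3.20, and over autosomal ones 3.36.

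Set against all protein-coding genes, the group spanned the middle and the upper part of the range. The median over the 9 genes was 4.59 summits per 10 kb, against 3.26 over the 21887 protein-coding genes (quartiles 1.34 and 5.90). Over autosomal protein-coding genes alone the median was 3.52. Of the 9 genes, 7 lay above the median of all protein-coding genes, where 50% of all genes do by definition. For 4 of them (Gnat1, Prph2, Nrl and Pde6a) the whole interval lay above it. How often that holds over all protein-coding genes was not computed. The interval of Pde6a starts at 3.30, which is below the autosomal median. Gnat1 had a higher density than 95.6% of protein-coding genes, Prph2 than 92.2% and Nrl than 82.5%. Crx stood at 49.7% and Pde6b at 43.6%. Each of the 9 genes is on a different chromosome, and chromosomes differ in density. Measured against the median gene of its own chromosome, 6 of 9 were higher, where about 50% of genes are by definition. Rcvrn, with 4.28 against 4.86 on chromosome 11, was the gene that changed sides.

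**Figure D1:**
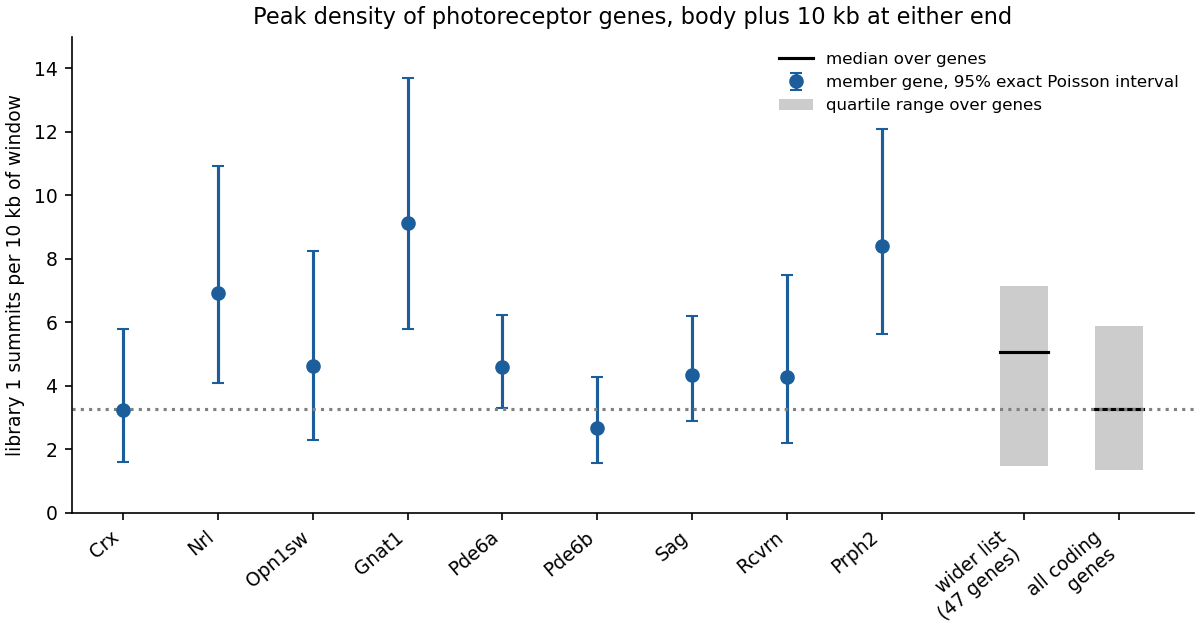
Summits of library 1 per 10 kb of window (gene body plus 10 kb at either end) for each of the 9 genes, with 95% exact Poisson intervals, beside the quartile range (grey) and median (black) of the wider photoreceptor list and of all protein-coding genes. Gnat1, Prph2 and Nrl stand highest at 9.13, 8.42 and 6.92, and Crx and Pde6b lie just below the dotted median of 3.26.

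Peak strength was ordinary for the list. The fold of the 191 peaks had a median of 3.77 (quartiles 3.23 and 4.58, range 2.15 to 6.73), against 3.90 (3.27 and 4.58) for all library 1 peaks. Their pileups ran from 8 to 25 reads with a median of 15, the same as that of the list. Peaks above the 90th percentile of the list, a fold of 5.39, numbered 13 of 191 (6.81%, 95% Clopper-Pearson interval 3.67 to 11.4), against 7.88% of the list, because many peaks tie at that value. These 13 were spread over 6 genes (Pde6a with 5, Crx, Nrl and Prph2 with 2 each, Sag and Rcvrn with 1 each). The strongest peaks of Gnat1, Pde6b and Opn1sw were equal to the percentile value and so were not counted. A peak above it was found near 59.2% of all protein-coding genes. All 9 genes had a peak with −log10 q of at least 5, as had 88.2% of protein-coding genes. Of the 191 peaks, 118 (61.8%) were called against the genome-wide background of 2.71 extended reads, and the highest local background was 7.55.

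**Figure D2:**
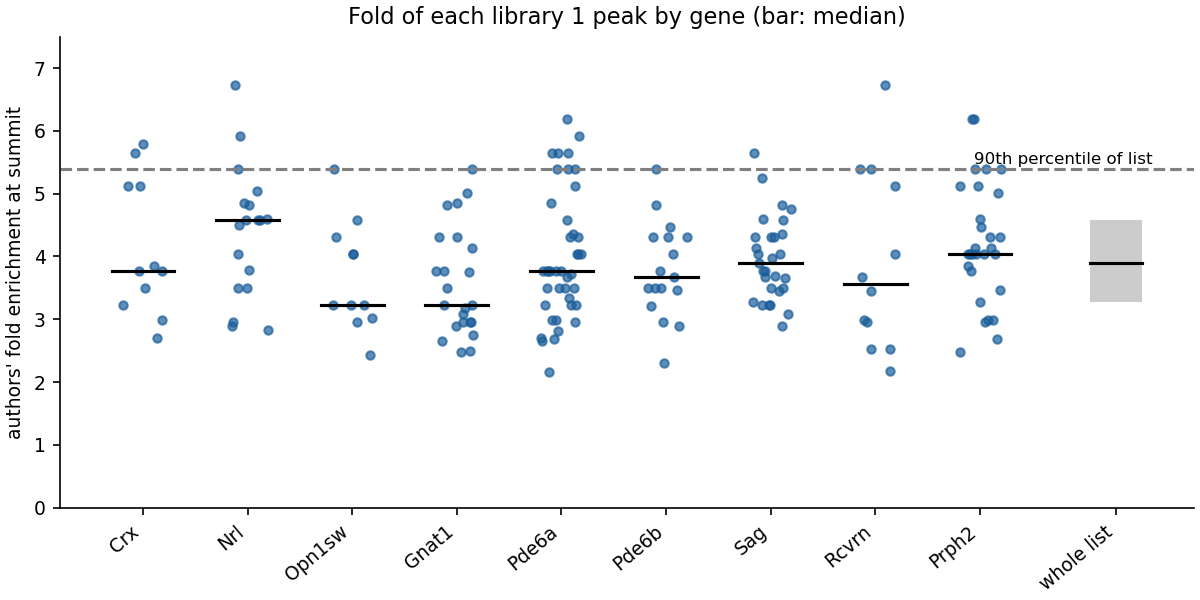
Authors' fold at the summit of every library 1 peak in the 9 windows (points, with horizontal jitter only) and the median of each gene (black bars), beside the quartile range and median of the whole list. Medians run from 3.23 at Opn1sw and Gnat1 to 4.58 at Nrl, and the highest points, at 6.73, belong to Nrl and Rcvrn.

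The summits were divided between gene bodies and flanks much as the window length was. Of the 191 summits, 91 (47.6%) lay in the body of the gene, which made up 54.0% of the window length, while 47 lay beyond the lower gene end and 53 beyond the higher one. All 9 genes had at least 1 summit in the body, as did 85.7% of protein-coding genes. A summit lay no further than 1 kb from an annotated end in 8 of 9 genes, where the background is 77.1%, and Sag was the exception. Body density exceeded flank density in 4 genes (Crx, Nrl, Opn1sw and Prph2), or 44.4%, against 55.4% of protein-coding genes. In every gene of the 9 the 2 intervals overlapped, but bodies with few summits have wide intervals (0.630 to 18.8 at Opn1sw). The share of all protein-coding genes with such overlap was not computed. Among flank summits, 53 of 100 lay inside a neighbouring protein-coding gene, and the same share over all protein-coding genes was not computed. These include all 10 flank summits of Rcvrn, which lies within the span of Glp2r.

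**Figure D3:**
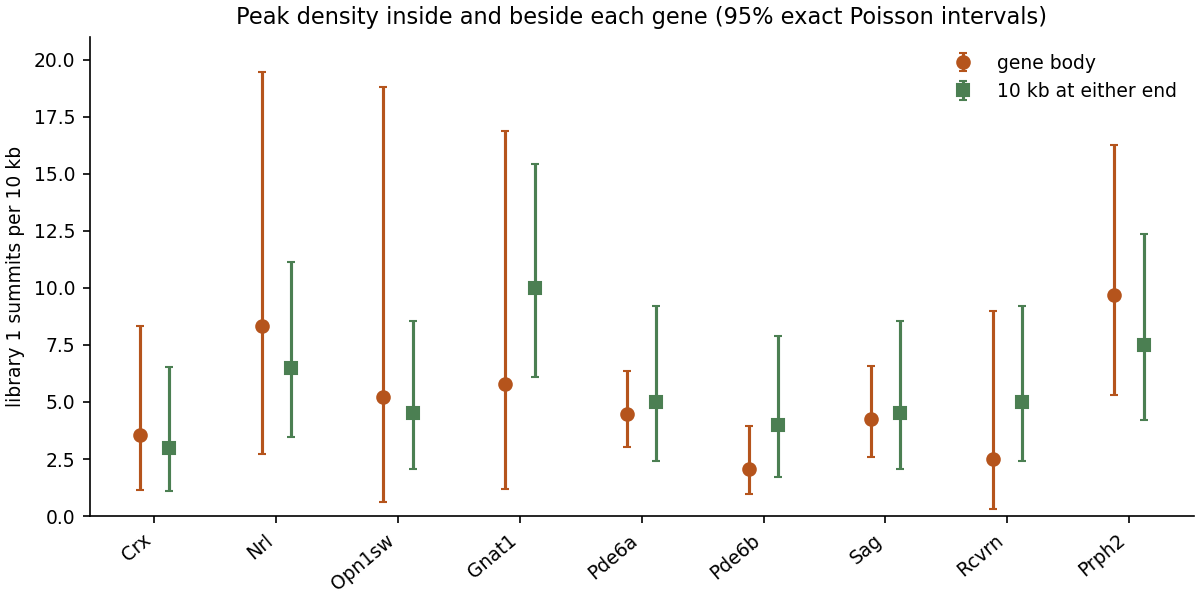
Summits of library 1 per 10 kb inside the gene body (circles) and in the 10 kb beyond either end (squares), with 95% exact Poisson intervals. Prph2 has the densest body at 9.68 and Gnat1 the densest flanks at 10, and the intervals of body and flank overlap for each gene.

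**Figure D4:**
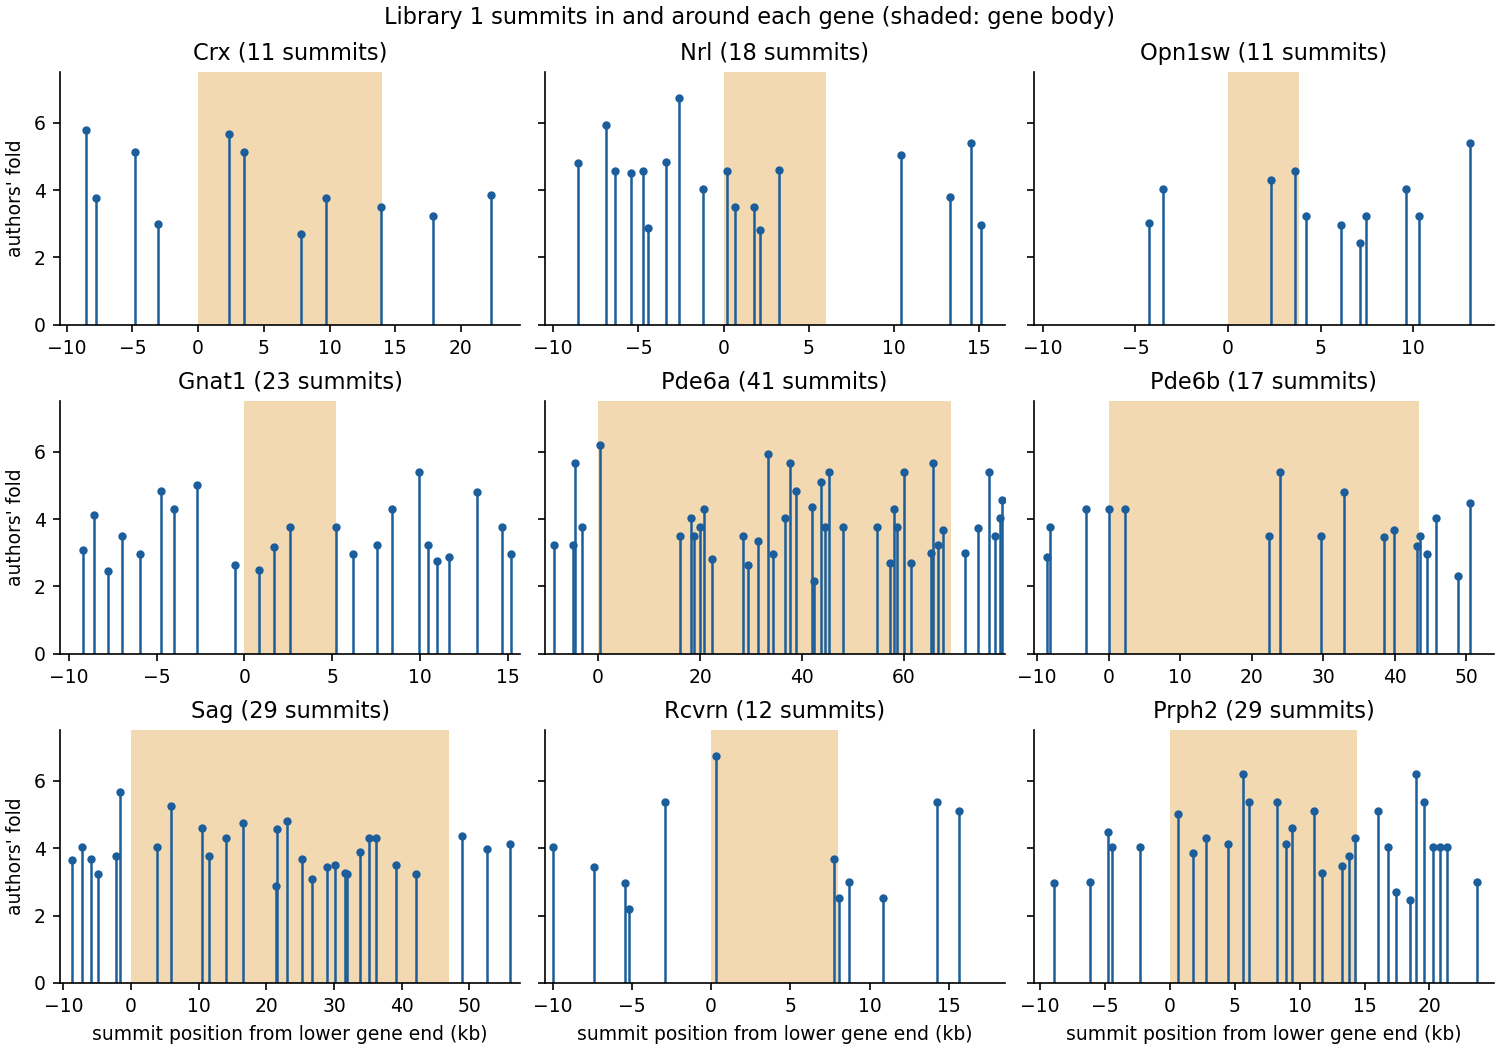
Position and authors' fold of every library 1 summit, as distance in kb from the lower annotated gene end, with the gene body shaded. Long stretches without a summit follow the lower end of Pde6a (15.6 kb), Pde6b (20.1 kb) and Rcvrn (7.43 kb), while Prph2 and Gnat1 carry summits throughout.

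Of the transcription factors, Nrl was the more densely covered and Crx the less, although the intervals of their densities overlapped. Crx encodes the homeodomain protein that activates most photoreceptor genes, and its gene occupies chr7:15865947-15879955 on the minus strand. It had 11 summits, of which 5 lay in the body. The peak at the start, chr7:15879821-15880021, had its summit 65 bp inside the gene, but its fold of 3.50 and pileup of 12 reads (6.20 to 20.96) were modest, and 63.1% of the list had a higher fold. The highest fold in the window, 5.79 with 21 reads (13.0 to 32.1), belonged to a peak 8510 bp beyond the 3′ end, at chr7:15857353-15857501. A wide peak of 621 bp in the body, with a fold of 5.66, lay 11623 bp from the start. Crxos, the neighbouring gene, held 2 of the 11 summits.

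Nrl encodes the bZIP factor that sets rod over cone fate, and its gene at chr14:55518978-55524981 is on the minus strand. Its window held 18 summits, of which 9 lay beyond the 3′ end and 4 beyond the higher end. There was no summit between 2008 bp inside the gene from the RefSeq start and 4412 bp beyond its higher end, a stretch of 7.15 kb. The strongest Nrl peak, chr14:55516240-55517313, was 1074 bp wide with a fold of 6.73 and 24 reads (15.4 to 35.7), and 0.884% of the list had a higher fold. Its summit lay 2599 bp beyond the 3′ end, in the body of the adjacent gene Cpne6, which held 7 of the 18 summits. Peaks covered 26.4% of the Nrl window, against 6.40% of the Crx window.

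Opn1sw, the opsin gene of short-wavelength cones, lies at chr6:29376671-29380513 on the minus strand and had 11 summits, 2 of them in its short body. Its start lay between peaks. The peak just inside the gene, chr6:29380047-29380411, had its summit 209 bp past the start, with a fold of 4.58 and 16 reads (9.15 to 26.0). Upstream of the start were 7 summits, among them the strongest of the window, 9234 bp away with a fold of 5.39. Calu, which overlaps the 3′ end, held 2 summits. None of the Opn1sw peaks exceeded the 90th percentile of fold, which the strongest equalled.

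Gnat1 encodes the rod transducin alpha subunit, at chr9:107674437-107679634, and had the densest window of all, although only 3 of its 23 summits lay in the body. The strand of Gnat1, Pde6a and Rcvrn was not used here, so positions are given from the lower or higher end. The flanks held 20 summits, or 10 per 10 kb (6.11 to 15.4), against 5.77 in the body (1.19 to 16.9). Sema3f held 9 of them and Slc38a3 held 5. At the higher end a peak of 506 bp had its summit 8 bp outside the gene, with a fold of 3.77 and 13 reads (6.92 to 22.2). The strongest peak, 1083 bp wide with a fold of 5.39, was inside Sema3f, 4734 bp beyond the higher end. The Gnat1 peaks had a median fold of 3.23, against 3.90 for the list, and covered 30.8% of the window.

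The genes for the catalytic subunits of rod phosphodiesterase, Pde6a and Pde6b, encode partners of the same enzyme. Pde6a, at chr18:61220474-61289750, held 41 summits, 31 in the body, at 4.59 per 10 kb. Pde6b, at chr5:108388373-108431743 on the plus strand, held 17, of which 9 were in the body, at 2.68 per 10 kb, and the intervals of the 2 genes overlapped. Both had a peak at the lower end. In Pde6a its summit lay 452 bp inside the gene, with a fold of 6.19 and 22 reads (13.8 to 33.3), and 2.28% of the list was higher. In Pde6b the summit lay 83 bp past the start, in a peak 720 bp wide with a fold of 4.31 and 15 reads (8.40 to 24.7).

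In both phosphodiesterase genes a long stretch without summits followed. It ran for 15.6 kb in Pde6a, from the peak at the lower end to position 61236562, and for 20.1 kb in Pde6b, from 2274 bp to 22378 bp past the start. Such stretches are common in long genes: of 6007 protein-coding genes of at least 40 kb, 47.3% had one of at least 15 kb in the body, and the median of the longest was 14.2 kb. Sag, the other long gene of the 9, had no body stretch without summits longer than 4.96 kb, which was shorter than in all but 9.17% of these genes. The strongest Pde6b peak, with a fold of 5.39, lay 23981 bp past the start.

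Sag encodes the arrestin that helps end the rod light response, and Rcvrn encodes recoverin, a calcium sensor of photoreceptors. Sag, at chr1:87798143-87845158 on the plus strand, had 29 summits, 20 of them in the body, with a median spacing of 1988 bp. Its RefSeq promoter start, at 87803680, lies inside the annotated gene, and the nearest summit was 294 bp past it, with a fold of 5.25 and 20 reads. The strongest peak had a fold of 5.66 and 20 reads (12.2 to 30.9), and was 1648 bp below the lower gene end.

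Rcvrn, at chr11:67695326-67703355, lies wholly within the annotated span of Glp2r, so all 12 of its summits were also in that gene, and 2 were in Gas7 as well. Its body held 2 summits, close to either end and 7.43 kb apart. The one at the lower end belonged to a peak of 531 bp, chr11:67695301-67695831, with a fold of 6.73 and 24 reads (15.4 to 35.7), equal in fold to the strongest peak of the Nrl window. The higher end had 3 summits no further than 1 kb away, the nearest 15 bp outside with a fold of 2.52 and 10 reads (4.80 to 18.4).

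Prph2 encodes peripherin-2, a tetraspanin of the outer segment disc rim, and had summits spread along its length at chr17:46910478-46924933. It had 29 summits, 14 in the body, and the longest stretch between summits in its window was 2.88 kb. The start lay at the edge of a peak 949 bp wide, chr17:46910447-46911395, with its summit 596 bp inside the gene, a fold of 5.004 and 18 reads (10.7 to 28.4). The highest fold, 6.19, was reached by a peak 5637 bp past the start and by another inside Ubr2, 4481 bp beyond the 3′ end, each with 22 reads (13.8 to 33.3). Peaks covered 28.1% of the window, and 15 of the 29 had −log10 q of at least 5.

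Peaks also differed in width. Those wider than 500 bp numbered 22 of 191 (11.5%), against 7.76% of the list. Median widths ran from 149 bp at Crx and 161 bp at Pde6b to 260.0 bp at Prph2 and 276.5 bp at Nrl. In each window, the farthest summit within the 10 kb limit lay at 8510 to 9984 bp from the gene, with folds of 2.89 to 5.79. The nearest summit beyond that limit lay at 10020 to 16071 bp from the gene, with folds of 2.96 to 4.31.

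Among 47 other photoreceptor genes, 46 had a peak in the window (97.9%, 88.7 to 99.9), against 94.8% of all protein-coding genes. Their median density was 5.06 per 10 kb, and 28 of 47 lay above the median of protein-coding genes. Pooled over all their windows, however, the density was 3.16 per 10 kb, against 3.20 for all protein-coding genes, so the difference depends on the summary used. High values were 10.04 at Grk1 (a kinase that helps end the light response), 9.20 at Tulp1 (a protein of outer segment transport), 8.84 at Guca1b (a guanylate cyclase activator) and 8.11 at Pde6g (the inhibitory phosphodiesterase subunit). At the other end, Rorb (a nuclear receptor of rod development) had 0.698, Opn1mw (the medium-wavelength cone opsin) 0.462, Pdc (phosducin) 0.290, Gucy2f (a guanylate cyclase) 0.145 and Arr3 (cone arrestin) no summit. Opn1mw, Gucy2f and Arr3 are the X-linked genes of the list, and the median over all protein-coding genes of the X chromosome was 0.235 per 10 kb. On autosomes 44 of 44 had a peak, close to the 97.0% of autosomal protein-coding genes. The median density of these 44 was 5.31, against 3.52 for autosomal protein-coding genes, and the pooled density was 3.34 against 3.36. None of the 47 had a library 2 peak.

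Within each role the spread was wide. The 9 other recovery and calcium genes ran from 0 to 10.04 per 10 kb, around the 4.33 of Sag and the 4.28 of Rcvrn. The 5 other transducin genes ran from 1.06 to 6.93, against 9.13 for Gnat1, whose interval (5.79 to 13.7) overlapped those of Gnat2 (4.44 to 10.3), Gnb3 (3.80 to 10.45) and Gngt2 (2.89 to 9.28). The 3 other phosphodiesterase genes, from 2.53 to 8.11, enclosed the values of both Pde6a and Pde6b. The 10 other transcription factor genes ran from 0.698 to 7.98, and the 8 other outer segment genes from 0.829 to 9.20, which enclosed the 8.42 of Prph2.

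**Figure D5:**
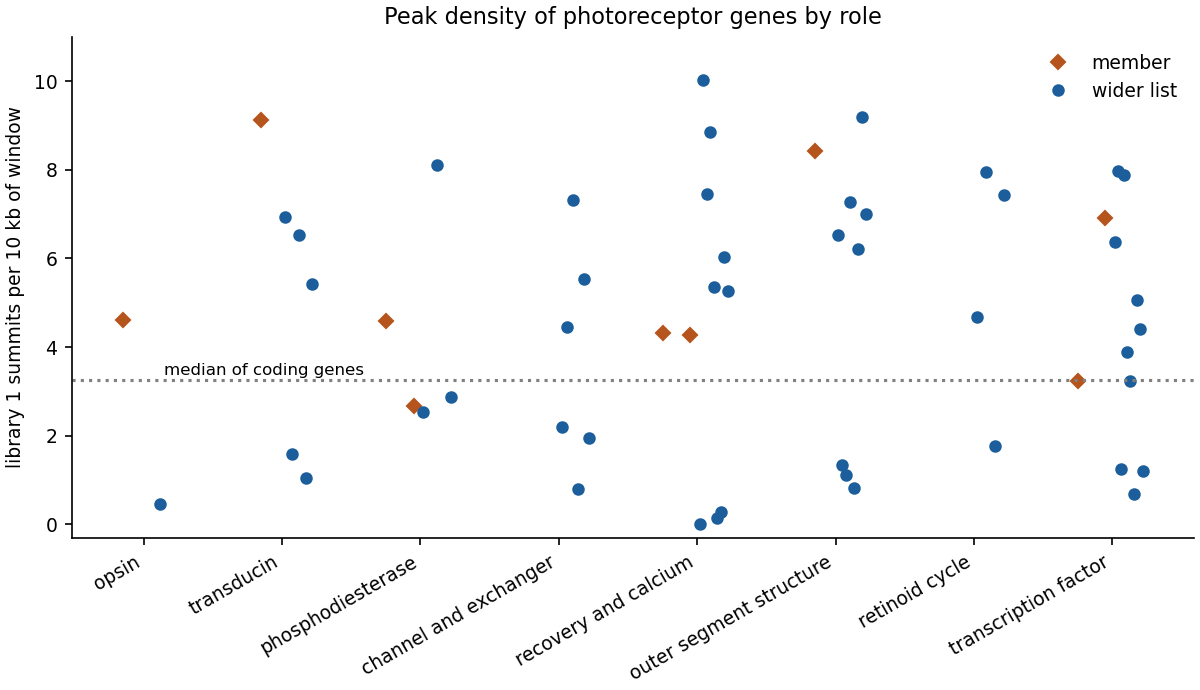
Summits of library 1 per 10 kb of window for the 9 genes (diamonds) and for 46 of the 47 other photoreceptor genes (circles), grouped by role; the dotted line is the median of protein-coding genes, 3.26. Every role with more than 1 gene has genes on both sides of that line.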

How the data were processed

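Each library has a deposited narrowPeak list, called per library. MACS2 2.1.0, Bowtie 1.1.2, Trimmomatic 0.33 and bcl2fastq 2.17 are listed, with builds mm10 and hg38, in the submitters' processing notes. Their roles, the settings and any control library are not given in the sources used here. The deposited values are a score, which is the −log10 q multiplied by 10 without its decimals, the fold enrichment of the summit as a ratio, and a −log10 p and −log10 q. Coordinates are mm10, counted from 1. Gene ends and promoters came from RefSeq, GRCm38.p6; all 9 genes matched by symbol and 6 had a promoter. The gene table gives no strand or exons.

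Summits were counted in the gene body plus 10 kb at either end. Pileups were solved from fold and −log10 p with a Poisson tail (tolerance 0.002; recovered for 100% of peaks) and the solver was tested on simulated data. Intervals on counts are 95% exact Poisson and on shares Clopper-Pearson, with counting error only. The labels name no second condition, so no test between groups was made. Genes, lists and motifs were chosen with earlier results of these data known. In the wider list, the genes named are the 5 highest and the 5 lowest in density, of which 1 is not reported here. The peaks named are the strongest and those nearest a gene end; others named, such as wide peaks, were chosen after their values were seen. Alternatives were other windows, −log10 q of at least 5, the highest folds, and peak overlap of 1 bp in place of the summit. Python 3.11.15, scipy 1.17.1 and pandas 2.3.3 were used.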

Additional observations from a re-analysis of the deposited data

How the results depend on the processing

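All 9 genes kept a library 1 peak with the gene body alone, with 5 or 20 kb at either end, with −log10 q of at least 5 and with overlap in place of the summit; 6 kept one among peaks above the 90th percentile of fold. The 191 summits became 91 with the body alone, 292 with 20 kb, 78 with −log10 q of at least 5 and 13 above the 90th percentile, by the construction of these settings. For the last pair, the density became 1.99 and 0.332 per 10 kb and the median fold 4.82 and 5.92. The number of genes above the median of protein-coding genes was 6 with bodies alone, 8 with −log10 q of at least 5 and 7 against autosomal genes. No interval occurred more than once in a list, so keeping 1 summit per interval altered nothing. Leaving out either library gave 0 to 9 genes with a peak and 0 to 191 peaks: without library 1 nothing remains, so every value here rests on that library. No paired analysis was possible because the libraries form 1 group. Summits rest on 8 to 25 reads, and a count of 15 has an interval of 8.40 to 24.7, which limits the order of single peaks.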

Other observations

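Some summits of these windows lay in genes of other kinds. The lncRNA genes Gm34204 and Gm34319 held 2 summits each in the Pde6b window, Gm46627 held 3 beyond the higher end of Pde6a, and Gm19582 held 1 beyond Sag. The widest Pde6a peak, of 760 bp, had its summit in the pseudogene Rps2-ps10 inside the Pde6a body, with a fold of 4.85. How uniquely reads map there was not tested. In the wider list, Guca1b and Guca1a are 1590 bp apart and share 16 summits between their windows, so their densities are not independent.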
